A study of Mus musculus with 8 samples.

Results

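The classical histone deacetylases other than Hdac3 are 10 genes, Hdac1, Hdac2 and Hdac4 to Hdac11. They were found by gene symbol among the 19933 genes that had a transcript cluster (the gene-level probe set of the array) of their own. All 10 were found, and all 10 lay above the level under which dim genes were left out, so they were among the 14950 genes tested. The study measured total RNA of whole hearts from male C57BL/6 mice aged 6 weeks on normal chow, 4 wild type (WT) and 4 deficient in HDAC3 (KO), with 1 Affymetrix Mouse Gene 1.0 ST array per mouse. The KO line is called MCH3-KO in the submitters' text, which does not say which heart cells or which promoter the deletion used, nor whether the controls carry any allele. Every array had a median intensity between 54.1 and 56.5, and the targeted gene matched the labels. Hdac3 had a mean log2 intensity of 10.10 ± 0.08 (SD, n = 4) in WT and of 8.57 ± 0.05 in KO hearts, which left 34.4% of the WT signal. The position of its probes relative to the deleted part was not checked.

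Histone deacetylases remove acetyl groups from lysines of histones and of many other proteins. The enzymes of class I (HDAC1, HDAC2, HDAC3 and HDAC8) are mostly nuclear, and HDAC1 and HDAC2 are the catalytic subunits of the Sin3, NuRD and CoREST corepressor complexes, whereas HDAC3 works in the NCoR complex. The class IIa proteins HDAC4, HDAC5, HDAC7 and HDAC9 have little deacetylase activity of their own. They bind MEF2 transcription factors in heart and skeletal muscle, leave the nucleus when kinases of the CaMK and protein kinase D families phosphorylate them, and recruit the NCoR complex with HDAC3. HDAC6 and HDAC10 form class IIb and act largely in the cytoplasm, and HDAC11 is the only member of class IV. The question asked of these genes was whether the transcript of any relative was higher in the KO hearts.

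Read through its brightest cluster, no deacetylase transcript was called higher, and 4 of the 10 fell. Hdac11 had the largest fall, to 65.7% of its WT level. Hdac6 fell to 77.5%, Hdac2 to 82.2% and Hdac5 to 86.2%. The other 6 did not pass the test, among them Hdac4, whose difference of 0.26 on the log2 scale was the largest in the upward direction. A gene was called when limma's Benjamini-Hochberg adjusted p, taken over all 14950 genes, was under 0.05. Of all genes tested 10.8% were called higher in KO hearts and 13.9% lower, against 0 and 4 of the 10 deacetylases. The groups were fully separate for 5 deacetylases, all lower in KO. Of all genes tested 28.6% were fully separate (16.8% lower in KO and 11.7% higher). The median difference of the 10 was -0.15, against -0.01 for all genes tested. Every difference below is the KO mean less the WT mean of log2 intensity, from 4 arrays a group. Levels are given for each gene on its own scale, because probes of different genes bind with different strength.

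**Figure D1:**
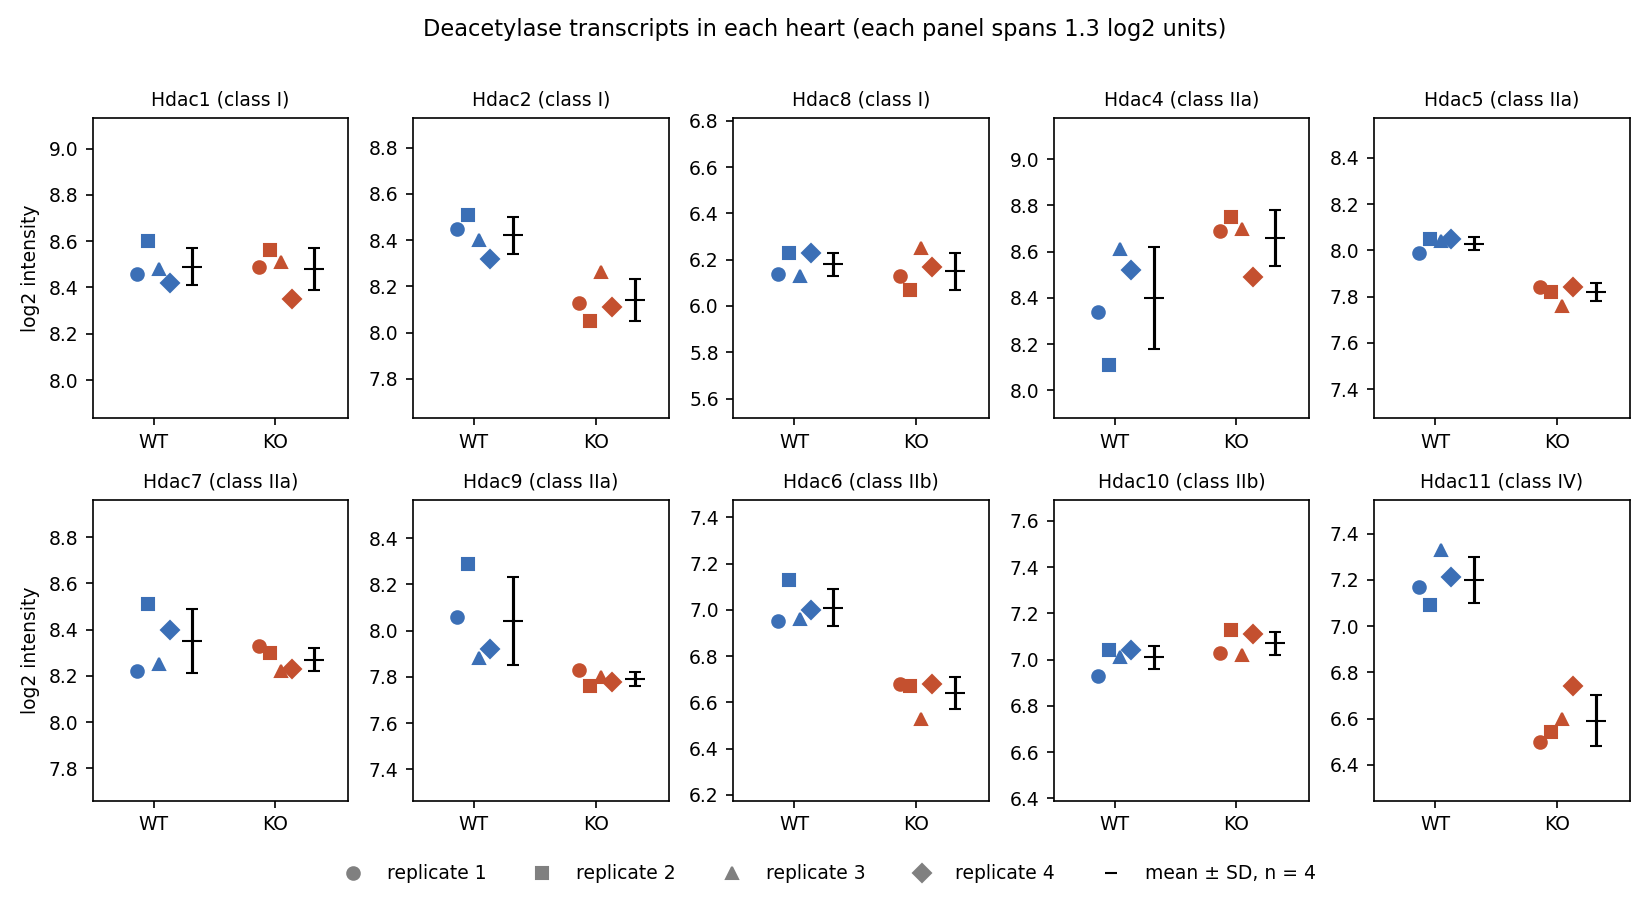
Log2 intensity of each deacetylase in every heart, with WT in blue, KO in red, a symbol for each replicate number, and the group mean ± SD (n = 4) in black; every panel spans 1.3 log2 units. The KO hearts lie below all WT hearts for Hdac2, Hdac5, Hdac9, Hdac6 and Hdac11.

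The sequences before the transcription start are shown for the 4 genes that fell and for Hdac4, the gene with the largest upward difference, which did not pass, so that the start regions of these genes can be read side by side. They are the 250 bases before a RefSeq start, 5′ to 3′ on the strand of the gene. RefSeq promoter entries were matched by symbol for 8 of the 10 genes. Capitals mark matches, on either strand, to the Sp1 box GGGCGG, the CCAAT box CCAAT, the first letters of a cyclic AMP response element TGACG, the nuclear receptor half-site AGGTCA, the TATA box TATAAA or the MEF2 motif.
Hdac2 promoter, GRCm38.p6 chr10:36974294-36974543, plus strand: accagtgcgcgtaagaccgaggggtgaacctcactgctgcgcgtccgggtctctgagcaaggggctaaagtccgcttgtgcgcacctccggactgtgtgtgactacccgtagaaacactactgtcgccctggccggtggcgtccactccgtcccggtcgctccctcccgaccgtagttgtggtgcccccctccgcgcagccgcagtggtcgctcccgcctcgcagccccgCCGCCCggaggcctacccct
Hdac5 promoter, GRCm38.p6 chr11:102230173-102230422, minus strand: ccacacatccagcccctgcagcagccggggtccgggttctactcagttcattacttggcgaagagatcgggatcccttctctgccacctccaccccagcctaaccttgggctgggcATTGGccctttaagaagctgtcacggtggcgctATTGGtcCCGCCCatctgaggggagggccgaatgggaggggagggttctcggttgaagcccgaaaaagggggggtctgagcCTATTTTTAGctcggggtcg
Hdac6 promoter, GRCm38.p6 chrX:7947890-7948139, minus strand: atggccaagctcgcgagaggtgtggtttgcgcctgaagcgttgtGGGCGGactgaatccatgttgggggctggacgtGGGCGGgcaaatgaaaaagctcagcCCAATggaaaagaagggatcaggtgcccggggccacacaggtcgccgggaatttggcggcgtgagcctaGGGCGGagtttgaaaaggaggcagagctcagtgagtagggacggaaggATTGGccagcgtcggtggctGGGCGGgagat
Hdac11 promoter, GRCm38.p6 chr6:91156565-91156814, plus strand: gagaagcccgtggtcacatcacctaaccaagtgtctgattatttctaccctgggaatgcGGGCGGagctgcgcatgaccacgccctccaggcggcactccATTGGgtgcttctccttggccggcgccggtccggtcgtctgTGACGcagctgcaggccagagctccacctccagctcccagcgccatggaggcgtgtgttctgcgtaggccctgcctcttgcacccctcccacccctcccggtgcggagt
Hdac4 promoter, GRCm38.p6 chr1:92180342-92180591, minus strand: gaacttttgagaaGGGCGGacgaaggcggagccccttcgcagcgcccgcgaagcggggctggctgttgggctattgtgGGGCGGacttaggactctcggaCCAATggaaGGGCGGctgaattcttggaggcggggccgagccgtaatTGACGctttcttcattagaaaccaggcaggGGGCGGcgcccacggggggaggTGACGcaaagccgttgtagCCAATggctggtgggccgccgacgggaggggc
None of the 5 windows held TATAAA or AGGTCA, and their GC content was 60.8% to 68.8%, against a median of 52.4% over 32851 RefSeq entries. All 5 held GGGCGG, at 1 site in Hdac2, Hdac5 and Hdac11 and at 4 sites in Hdac6 and in Hdac4, and 32.7% of all entries held it. CCAAT was present in Hdac4, Hdac5, Hdac6 and Hdac11 (33.8% of all entries), and TGACG in Hdac4 at 2 sites and in Hdac11 at 1 (17.8%). The MEF2 motif was found in Hdac5, where its last base lay 11 bases before the start, and in 2.92% of all entries. The windows of Hdac7, Hdac8 and Hdac9, which are not shown, were searched in the same way. TATAAA was found in Hdac8 and at an Hdac9 start, and AGGTCA at an Hdac7 start and an Hdac9 start. GGGCGG was found at a single Hdac7 start and not in Hdac8 or Hdac9, and CCAAT was found in Hdac8. These are letter matches, and no binding was measured here.

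Among the class I enzymes Hdac2 fell while Hdac1 and Hdac8 did not pass. Hdac2, which encodes a catalytic subunit of the same complexes as HDAC1, was 8.45, 8.51, 8.40 and 8.32 in WT replicates 1 to 4 and 8.13, 8.05, 8.26 and 8.11 in the KO hearts. The highest KO heart lay under the lowest WT heart. The difference was -0.28 (SE 0.06, 95% interval -0.42 to -0.15, adjusted p = 0.00707, limma).

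Hdac1 was 8.46, 8.60, 8.48 and 8.42 in WT and 8.49, 8.56, 8.51 and 8.35 in KO hearts. The groups overlapped almost completely, and the difference was -0.01 (95% interval -0.15 to 0.13, adjusted p = 0.931, limma), so that a KO level above 109% of WT lies outside the interval. A dimmer cluster was also annotated to Hdac1 and differed by -0.11 (SE 0.09, adjusted p = 0.458 in a fit of 16259 clusters, limma). RefSeq lists a processed copy of the gene, the pseudogene Hdac1-ps, and which locus that cluster reads was not tested. Hdac8, which removes the acetyl group from the cohesin subunit SMC3, ranged from 6.13 to 6.23 in WT and from 6.07 to 6.25 in KO hearts. Its difference was -0.03 (95% interval -0.15 to 0.09, adjusted p = 0.762, limma), which puts a KO level above 107% of WT outside the interval.

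Of the 4 class IIa genes Hdac5 fell, and Hdac4, Hdac7 and Hdac9 did not pass. Hdac5, a repressor of MEF2 that restrains hypertrophic growth of the heart, had the narrowest spread of the 10, with 7.99, 8.05, 8.04 and 8.05 in WT and 7.84, 7.82, 7.76 and 7.84 in KO hearts. Its groups were clearly apart, although the difference was the smallest among the transcripts that fell. Hdac5 differed by -0.21 (SE 0.05, 95% interval -0.32 to -0.11, adjusted p = 0.00607, limma). Its SD within groups was 0.03, lower than that of all but 2.48% of the genes tested.

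Hdac4, which binds MEF2 as HDAC5 does, was 8.34, 8.11, 8.61 and 8.52 in WT and 8.69, 8.75, 8.70 and 8.49 in KO hearts. KO replicate 4 lay below WT replicates 3 and 4, so the groups overlapped, and the WT hearts spread widely (SD 0.22). The difference of 0.26 (SE 0.10, 95% interval 0.03 to 0.49) had an adjusted p of 0.0987 in limma. It did not pass, and a difference of at least 0.32 would have been needed at this spread. The upper bound of the interval corresponds to 141% of the WT level.

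Hdac4 was read by a second, slightly dimmer cluster, in which it was higher. There it was 8.20, 7.87, 8.35 and 8.36 in WT and 8.74, 8.73, 8.77 and 8.42 in KO hearts, without overlap. The difference in that cluster was 0.47 (SE 0.12, 95% interval 0.21 to 0.73, adjusted p = 0.0149 in the fit of 16259 clusters, limma). Both clusters had a KO mean of 8.66. The WT mean was 8.40 in the brighter and 8.20 in the dimmer cluster, so which was brighter followed from the WT level. WT replicate 2 was the lowest and KO replicate 4 the lowest of its group in both clusters. The clusters' differences lay 0.21 apart, and 14.3% of 596 genes with 2 clusters lay at least as far apart (median 0.08). The exons that each cluster covers were not examined. With the clusters averaged Hdac4 differed by 0.36 (adjusted p = 0.0336, limma) and passed, and it also passed without WT replicate 3 (0.33, adjusted p = 0.0456). Without WT replicate 2 the difference was 0.17 (adjusted p = 0.195, limma). The count of 0 deacetylases called higher rests on the choice of the brighter cluster and on WT replicate 3.

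Hdac9, whose gene also makes a short form without the catalytic domain that binds MEF2, was 8.06, 8.29, 7.88 and 7.92 in WT and 7.83, 7.76, 7.80 and 7.78 in KO hearts. All KO hearts lay under all WT hearts, but WT replicate 2 was far above the other WT hearts and the WT spread was 0.19. The difference of -0.25 (SE 0.08, 95% interval -0.43 to -0.06) narrowly missed the threshold with an adjusted p of 0.0556 in limma. It passed without WT replicate 3 (-0.30, adjusted p = 0.0302) and without WT replicate 4 (-0.29, adjusted p = 0.0476), and it was -0.16 (adjusted p = 0.0715) without WT replicate 2. The cluster gives 1 value for the gene, so its short and long forms cannot be told apart. Hdac7, which is abundant in blood vessel endothelium, was 8.22, 8.51, 8.25 and 8.40 in WT and 8.33, 8.30, 8.22 and 8.23 in KO hearts. These groups overlapped, and the difference was -0.08 (SE 0.07, 95% interval -0.23 to 0.08, adjusted p = 0.481, limma).

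In the class IIb pair Hdac6 fell and Hdac10 did not pass. Hdac6, which encodes the main tubulin deacetylase, was 6.95, 7.13, 6.96 and 7.00 in WT and 6.68, 6.67, 6.53 and 6.68 in KO hearts. Every KO heart was lower than every WT heart, with a gap wider than the range of either group. The difference was -0.37 (SE 0.06, 95% interval -0.50 to -0.24, adjusted p = 0.00124, limma). Hdac10, a polyamine deacetylase, ranged from 6.93 to 7.04 in WT and from 7.02 to 7.13 in KO hearts and differed by 0.07 (SE 0.05, 95% interval -0.05 to 0.18, adjusted p = 0.401, limma). A KO level above 113% of WT lies outside that interval.

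Hdac11, the class IV enzyme that removes fatty acyl groups from lysines more readily than acetyl groups, was 7.17, 7.09, 7.33 and 7.21 in WT and 6.50, 6.54, 6.60 and 6.74 in KO hearts. The KO hearts were lower throughout, and the gap between the groups was wider than the spread within either. The difference was -0.61 (SE 0.07, 95% interval -0.76 to -0.45, adjusted p = 0.000159, limma). It was the only deacetylase besides Hdac3 that differed by 1.5-fold or more. Among all 14950 genes it ranked 479 by p and had the 236th largest fall. Over the 8 arrays the genes outside the family most like it by Pearson's r were Lamtor4 (0.993), a gene of the lysosomal Ragulator complex, Dpf3 (0.990), a chromatin remodelling subunit, and Tesc (0.988), and 592 genes reached 0.9. These coefficients describe 8 arrays in 2 groups and carry no test.

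**Figure D2:**
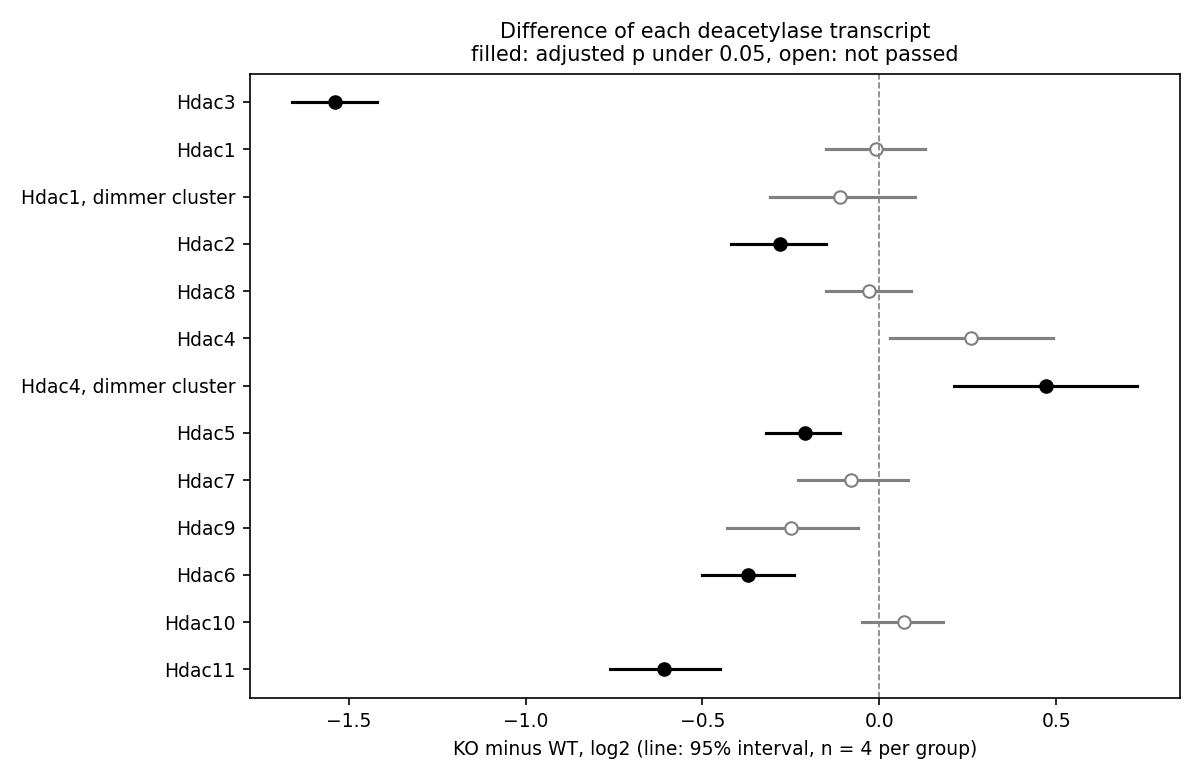
KO minus WT difference on the log2 scale with its 95% interval for Hdac3, the other 10 deacetylases and the dimmer clusters of Hdac1 and Hdac4; filled points had an adjusted p under 0.05 (limma, n = 4 per group). Hdac3 lies at -1.54 and Hdac11 at -0.61, and the dimmer Hdac4 cluster is the only filled point above 0.

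Whether close relatives differed unequally was asked of 8 pairs, through the log2 ratio of the pair within each heart. The exact two-sided permutation test over the 70 divisions of the arrays cannot give a p below 0.0286. After Benjamini-Hochberg adjustment over 8 pairs, p-values at this floor pass only when 5 or more pairs reach it, and 0 of the 8 pairs passed. The count passing thus depends on how many pairs reach the floor together, and does not measure the size of any difference. The ratio of Hdac1 to Hdac2 was 0.01 to 0.10 in WT and 0.23 to 0.51 in KO hearts. The ratio thus moved by 0.27, without overlap (exact p = 0.0286, adjusted p = 0.0762). Hdac6 to Hdac10 moved the other way, from between -0.05 and 0.08 in WT to between -0.49 and -0.35 in KO hearts (difference -0.43, exact p = 0.0286, adjusted p = 0.0762). Hdac4 to Hdac5 lay between 0.06 and 0.57 in WT and between 0.65 and 0.94 in KO hearts (difference 0.48, exact p = 0.0286, adjusted p = 0.0762). The other 5 pairs were all within class IIa, and their groups of ratios gave exact p-values of 0.0571 or more. Without WT replicate 3, 5 pairs passed, each with an adjusted p of 0.0457 in the exact permutation test: Hdac1 to Hdac2 (0.27), Hdac6 to Hdac10 (-0.45), Hdac4 to Hdac5 (0.55), Hdac4 to Hdac7 (0.44) and Hdac4 to Hdac9 (0.63). In the full set Hdac5 and Hdac9 were the closest, with a difference of 0.03 in their ratio.

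The hearts were alike in how many deacetylases moved. In KO replicates 1 to 4 respectively 6, 6, 5 and 6 of the 10 lay below the lowest WT heart, and 1, 2, 2 and 1 lay above the highest. The share of all genes tested that lay outside the WT range in each KO heart was not taken. These counts therefore only compare the KO hearts with each other. Among the WT hearts replicate 2 stood out, with the highest value for 6 of the 10 (Hdac1, Hdac2, Hdac6, Hdac7, Hdac9 and, narrowly over replicate 4, Hdac8) and the lowest for Hdac4 and Hdac11. Without that array the same test still called 4 deacetylases lower and 0 higher.

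Markers of other heart cells were read in the same arrays, and for whole hearts fewer cells of a type and less RNA per cell cannot be told apart. Cardiomyocyte genes were present, with 0 of 10 called higher and 3 lower, and their summed intensity was 75076 to 76213 in WT and 71336 to 72460 in KO hearts. Macrophage markers rose, 12 of 12, with a median of 1.32 and a summed intensity of 3330 to 3824 in WT and 7577 to 9822 in KO hearts. Lyz2 rose by 1.41 and Csf1r by 1.31. Among fibroblast markers 3 of 9 rose (8376 to 8909 in WT, 8808 to 9839 in KO). Of 10 endothelial markers 1 rose, and the sums were 7573 to 9384 in WT and 8111 to 8617 in KO hearts. Of 7 smooth muscle and pericyte markers 0 passed, with sums of 6063 to 8251 in WT and 7489 to 8247 in KO hearts, and of 3 adipocyte markers tested 0 passed. Of 5 lymphocyte markers tested Cd4 rose by 0.42, while Cd3g, Cd79a and Ms4a1 lay under the dim filter. Of 2 erythroid markers tested Alas2 fell by 0.33 on the log2 scale, and of 6 skeletal muscle markers tested Acta1 rose by 1.27 and Ckm fell by 0.25. Myh2, Tnni2, Actn3 and Tnnt3, named after their values were seen, did not pass (-0.07 to 0.04), and Myh1 and Myh4 lay under the dim filter. In WT hearts Acta1 was 10.78 and Ckm 12.20, while the skeletal muscle markers that did not pass were 4.79 to 6.13. The part of these cells in the deacetylase differences was not tested.

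WT replicate 2, which had the highest value of 6 deacetylases, was also the highest WT heart in 7 of the 9 marker lists. Relative to the WT mean its adipocyte markers averaged 0.40 on the log2 scale, its smooth muscle and pericyte markers 0.32 and its endothelial markers 0.20. Its fibroblast, lymphocyte, macrophage and cardiomyocyte markers averaged 0.14, 0.13, 0.10 and 0.02. These averages take in genes under the dim filter (log2 4.50). The adipocyte average covers 5 genes, among them Lep and Ucp1, which lay under the filter, and Adipoq, which was 4.66 in WT. It therefore rests partly on values near the floor. The part of this array's make-up in its deacetylase values was not tested.

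**Figure D3:**
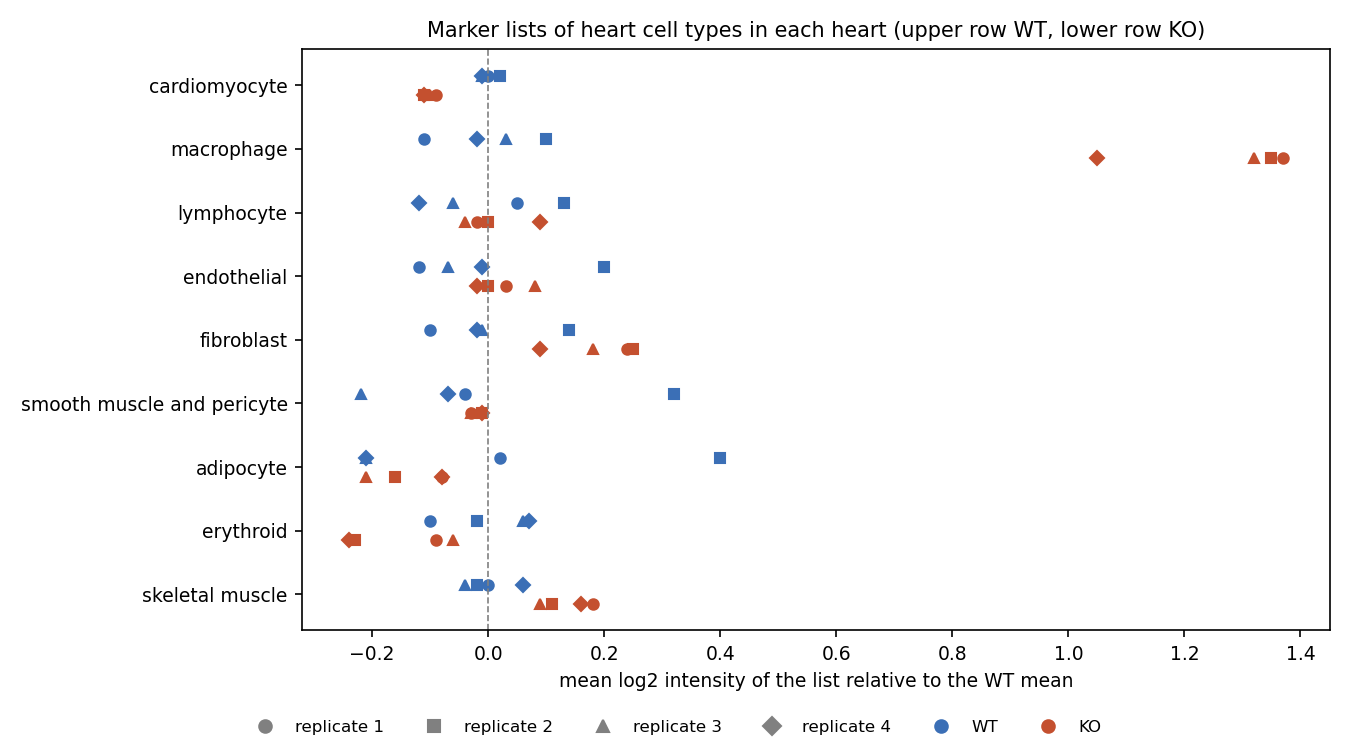
Mean log2 intensity of each of 9 marker lists in every heart, relative to the WT mean, with WT in blue, KO in red and a symbol for each replicate number. The KO hearts lie farthest from the WT hearts for macrophage markers (1.05 to 1.37), and WT replicate 2 (squares) is the rightmost WT heart for adipocyte (0.40) and smooth muscle and pericyte markers (0.32). Genes under the dim filter are included, among them Lep and Ucp1 of the adipocyte list.

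The proteins that work with these enzymes were followed in 9 lists with 107 genes tested, of which 13 rose and 22 fell (32.7%, against 24.6% called among all genes tested), with a median of -0.02. Of 31 subunits of the class I complexes Sin3, NuRD, CoREST and MiDAC, 1 rose and 7 fell, with a median of -0.10. Chd3, a helicase of NuRD, went from 7.12 ± 0.05 in WT to 7.87 ± 0.03 in KO hearts (SD, n = 4), a rise of 0.76 (SE 0.05, adjusted p = 3.92e-06, limma), and its relative Chd4, named after its values were seen, differed by -0.12 (adjusted p = 0.188). The methyl-CpG binding domain genes Mbd3 (-0.22) and Mbd2 (-0.18) and the Sin3 subunit Sap130 (-0.20) fell. The other 4 falls, named after their values were seen, were Rcor2 (-0.28), Rcor3 (-0.25), the histone demethylase gene Kdm1a (-0.20) and Hmg20b (-0.19), the last pair with adjusted p-values of 0.0487 and 0.0489 in limma. For the NCoR complex, in which HDAC3 itself works, 2 of 3 tested subunits rose, Tbl1xr1 by 0.53 (SE 0.05) and Tbl1x by 0.32 (SE 0.06), and Gps2 differed by 0.05 (adjusted p = 0.548, limma). Ncor1 had no cluster of its own and was not analysed here.

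Around the class IIa proteins, 2 of 10 MEF2 factors and partners rose and 2 fell, with a median of -0.02. Mef2d rose by 0.24 (SE 0.05, adjusted p = 0.00454, limma), while Mef2a (-0.04) and Mef2c (-0.01), named after their values were seen, did not pass. Ankrd11, a chromatin regulator, rose by 0.25. Myocd, a muscle coactivator repressed by class IIa deacetylases, fell by 1.18 on the log2 scale (SE 0.06), and its DNA-binding partner Srf fell by 0.21. Of 21 kinases and phosphatases that act on class IIa proteins, 1 rose and 6 fell, with a median of -0.05. Camk2b fell by 0.70 (SE 0.10), Camk2a by 0.48 (SE 0.06) and Camk1 by 0.34 (SE 0.05), and Camk1d rose by 0.66 (SE 0.10). Camk2d, the main CaM kinase II gene of the heart, differed by 0.03 (adjusted p = 0.712, limma), and the protein kinase D genes differed by -0.02 to 0.10 without passing. These 4 genes were named after their values were seen. Of 7 genes of 14-3-3 proteins, which hold phosphorylated class IIa proteins in the cytoplasm, Ywhae fell by 0.23 and the others did not pass. Among 10 targets of MEF2, Xirp2 rose by 0.60, and Ckm (-0.25), Smyd1 (-0.23) and Myl2 (-0.20) fell, with a median of -0.03.

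Of 8 HDAC6 substrates and partners tested 3 rose and 1 fell, with a median of 0.13. Tuba1b, Tuba1c and Hsp90ab1, also on that list, had no cluster of their own and were not analysed here. Sqstm1, an autophagy receptor, rose by 0.39 (SE 0.05) and the tubulin genes Tuba4a and Tuba1a by 0.22 and 0.20, and Plaa fell by 0.15. The array measures transcripts, and tubulin acetylation was not analysed here. Of 10 cohesin genes tested 3 rose, Rad21 by 0.34, Stag2 by 0.17 and Smc1a by 0.14, and 0 fell, and the HDAC8 substrate gene Smc3 differed by 0.04 (adjusted p = 0.754, limma), named after its values were seen. Sirtuins are deacetylases of class III, which use NAD instead of zinc. Of 7 sirtuin genes 0 rose and 2 fell, the mitochondrial Sirt5 by 0.21 and Sirt4 by 0.17, with a median of -0.14. Their range was -0.21 to 0.01.

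**Figure D4:**
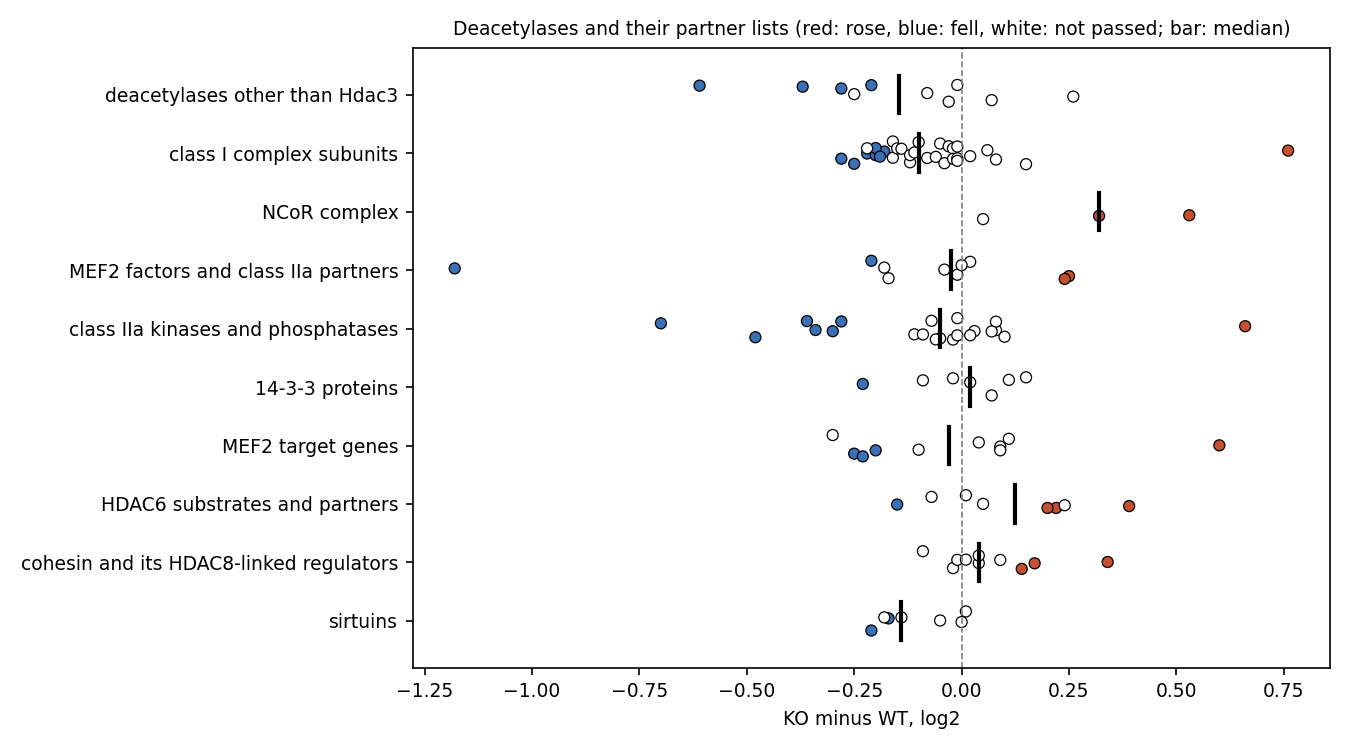
KO minus WT difference (log2) of each tested gene of the deacetylase family and of 9 partner lists; red points rose, blue points fell, white points did not pass (limma adjusted p, n = 4 per group), and the black bar is the median of the list. No deacetylase point, each from the brightest cluster of its gene, is red, and the farthest points are Myocd at -1.18 and Chd3 at 0.76.

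The 4 falls did not hinge on a single array. When each of the 8 arrays was left out in turn, Hdac11 stayed between -0.66 and -0.56, Hdac6 between -0.39 and -0.33, Hdac2 between -0.32 and -0.25 and Hdac5 between -0.23 and -0.20, and each passed in all 8 fits.

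**Figure D5:**
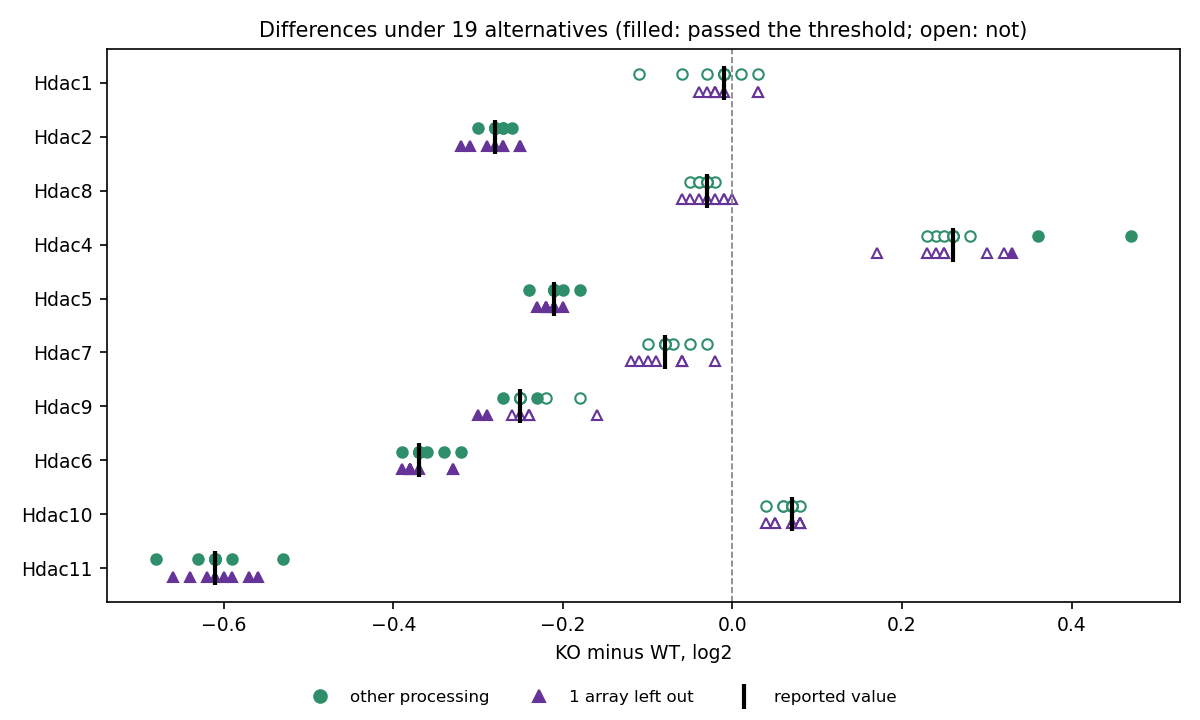
KO minus WT difference (log2) of each deacetylase under 19 alternatives: circles are other ways of processing, triangles leave out 1 array, filled symbols passed the threshold of that alternative, and the black bar is the reported value. Hdac2, Hdac5, Hdac6 and Hdac11 are filled throughout, and Hdac4 and Hdac9 are filled in 3 and 6 of the 19.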

How the data were processed

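The authors deposited processed intensity values on a linear scale, 1 per array for each of 27541 clusters, from 8 arrays. The submitters' processing notes name Partek and RMA without versions. The sources used here name neither a probe annotation nor a genome build. Scanner files, detection calls and scan dates were not used here. Clusters with a single gene symbol in the platform table (21631, against 1317 with several and 4593 with none) were kept, with the brightest cluster per gene. Genes whose mean over all arrays was under the 25th percentile (log2 4.50) were left out. Log2 values were compared with limma 3.58.1 in R 4.3.3 (lmFit, eBayes, two-sided, 6 residual degrees of freedom), adjusted by Benjamini-Hochberg over 14950 genes. The test was tested on simulated data. The number of arrays limits the precision. The p-values set each difference against the spread between these 4 mice per group, which limma moderates with the spread of all genes tested. Promoters are RefSeq entries on GRCm38.p6. Named genes were the 10 deacetylases, Hdac3, up to 4 genes per partner list and up to 2 per marker list with the smallest p, and the 3 genes most like the deacetylase with the smallest p; others are said to be named after their values were seen. Members and lists were chosen with earlier results of these data known. Figures used matplotlib 3.10.9 in Python 3.11.15.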

Additional observations from a re-analysis of the deposited data

Results flagged for a closer look

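Within groups of 4, 2 of 22 tested sets of values held an array far from the other 3, where chance gives about 1 in 20. Hdac6 was 6.53 in KO replicate 3, below the 6.67 to 6.68 of the other KO hearts. Hdac3 was 8.50 in KO replicate 4, against 8.59 in each of the other KO hearts.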

How the results depend on the processing

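The 4 falls kept their direction and passed under all 19 alternatives, and Hdac3 ranged from -1.56 to -1.50. Deacetylases called higher were 0, and 1 (Hdac4) with averaged clusters and with the dimmest cluster (0.47). Over the fits without 1 array that count was 0 to 1, partner genes called lower were 12 (without WT replicate 1) to 22, and pairs passing were 0 to 5, with 5 without WT replicate 3. Partner genes called lower were 22, and 8 at an adjusted p under 0.01. Hdac9 also passed with median scaling (-0.27), the filter at the 50th percentile, 16 added before log2 (-0.23) and an intensity trend with robust variances. Hdac1 took the other sign with quantile normalisation (0.01) and array weights (0.03), as it did without WT replicate 2 or KO replicate 4. Its difference ranged from -0.04 to 0.03 without 1 array and from -0.11 to 0.03 over the 19 alternatives. The Hdac5 to Hdac9 ratio ranged from -0.05 to 0.09 without 1 array. With WT replicate 2 and KO replicate 4 both left out, chosen after seeing the data, 14 partner genes were called lower, Hdac1 was 0.07 and the Hdac5 to Hdac9 ratio was -0.06. The cause of these changes was not tested. Same-numbered arrays did not deviate together (correlations -0.04 to 0.08), so the numbers gave no sign of pairing, and the labels do not say whether the mice were paired. With the replicate block 1916 genes were called lower against 2071, 1466 higher against 1612, and no deacetylase call changed. With the replicate block the sign-flip test of a pair cannot pass, and its smallest p was 0.125.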

Other observations

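The tested genes nearest to the deacetylases that fell and to Hdac4 were read as well, after the deacetylase values were seen. They follow the RefSeq order of the genes tested, so genes not tested between them are skipped, and distances were not taken. Of 20 such neighbours, 4 for each deacetylase, 1 was called higher and 7 lower (40.0%, against 24.6% of all genes tested). Of the 4 nearest tested neighbours of Hdac11, Iqsec1 fell (-0.20, adjusted p = 0.0499, limma), while Nup210, Fbln2 and Chchd4 did not pass. Beside Hdac6, Was, a regulator of actin in blood cells, rose by 0.40 and Wdr13 fell by 0.32 on the log2 scale, while Pcsk1n (0.01) and Timm17b (-0.20) did not pass. Beside Hdac2 the sulfotransferase gene Hs3st5 (-0.42) and the laminin gene Lama4 (-0.30) fell, while Frk (-0.13) and Marcks (0.19) did not pass. Beside Hdac5 Tmub2 fell (-0.21), while Lsm12, G6pc3 and Asb16 (-0.13 to -0.01) did not pass. Beside Hdac4 the complex I gene Ndufa10 (-0.24) and Asb1 (-0.20) fell, while Twist2 (-0.13) and Olfr1413 (0.08) did not pass.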
